A study of Mus musculus with 11 samples.

Results

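The interferon-stimulated genes are the genes that cells switch on when type I interferon reaches them. Here 40 genes of that response and of the signalling around it were followed in HL-1 cells. HL-1 is a line of contracting cardiomyocytes derived from a mouse atrial tumour. The 40 genes were chosen by name and cover the interferon receptor, the transcription factors that carry its signal, the sensors of viral RNA, the antiviral effectors and antigen presentation. All probes whose platform gene symbol is 1 of the 40 names were taken, which gave 64 probes of 38 genes among the 16593 genes named on the array. Dtx3l and Ifi44 have no probe under these symbols and were not analysed here.

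RNA was measured on 11 arrays, each from 1 culture flask of HL-1 cells kept for 23 h in serum-free medium. The control group had 4 flasks without added growth factor, the TGF-β2 group 4 flasks with 10 ng/mL of transforming growth factor β2, and the PDGF-BB group 3 flasks with 100 ng/mL of platelet-derived growth factor BB. The cells are 1 immortalised line, so the flasks measure how cultures of that line vary. The arrays lay on 2 chips, and each chip held all 3 groups. Between 11401 and 12455 of the 25697 probes on an array had a detection p-value under 0.05, with no group apart from the others in this respect. Of the cardiomyocyte markers, 6 of the 7 genes with a probe were detected on all 11 arrays, among them the atrial genes Nppa, which encodes the atrial natriuretic peptide, and Myl7, an atrial myosin light chain. Ryr2, the calcium release channel of the sarcoplasmic reticulum, was detected on no array. No fibroblast marker of 9 and no endothelial marker of 8 passed the detection rule on every control array, and of 9 leukocyte markers only Cd3e did. Cd3e passed on 9 of the 11 arrays, with a mean normalized signal of 56.0 in control cells. By the detection p-value alone, 8 of the fibroblast, 5 of the endothelial and 4 of the leukocyte markers were detected on no array, and the others on at least 1.

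Type I interferon binds a receptor made of IFNAR1 and IFNAR2, whose kinases JAK1 and TYK2 phosphorylate STAT proteins, STAT2 among them. Together with IRF9 these form a complex that enters the nucleus and binds the interferon-stimulated response element in the promoters of its target genes. Many of these targets also have a low basal level in the absence of infection, and cardiomyocytes, which the heart can hardly replace, are known for an innate antiviral defence of their own.

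The response element itself was looked for in the promoters, because it is the sequence through which interferon acts on many genes of this kind. Its core was taken as 2 GAAA units with 2 bases of any kind between them, on either strand, in RefSeq promoter windows of build GRCm38.p6 that run from 250 bases before to 50 bases after a transcription start. A window was at hand for 30 of the 38 measured genes, and 15 of them held the core in at least 1 window, against 3.99% of the 27025 genes with a window in the whole table. Per window, the share was 39.5% of 38 against 3.44% of 32851. The stretches below, each of 60 bases and written on the strand that reads toward the gene, show the core in capitals for pairs of genes of 1 family that differed in detection (Ifit3 and Ifit1, Gbp2 and Gbp3), and for Isg15, B2m and Oas1a, of which the first pair were detected in these cells and Oas1a was not. Where cores overlap, the capitals run through them.
Ifit3: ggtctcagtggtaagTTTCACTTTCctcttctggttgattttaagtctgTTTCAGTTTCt
Ifit1: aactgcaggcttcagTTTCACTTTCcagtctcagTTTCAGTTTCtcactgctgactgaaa
Gbp2: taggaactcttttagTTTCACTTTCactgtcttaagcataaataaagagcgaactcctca
Gbp3: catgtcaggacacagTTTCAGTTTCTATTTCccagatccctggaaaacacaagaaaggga
Isg15: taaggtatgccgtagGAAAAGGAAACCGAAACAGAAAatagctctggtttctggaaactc
B2m: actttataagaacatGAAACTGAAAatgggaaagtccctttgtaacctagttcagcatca
Oas1a: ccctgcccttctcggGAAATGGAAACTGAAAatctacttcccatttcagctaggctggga

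The stretch of Ifit3 lies at chr19:34583358-34583417 (plus strand) and that of Ifit1 at chr19:34640770-34640829 (plus strand). Those of Gbp2 and Gbp3 lie at chr3:142620589-142620648 (plus strand) and chr3:142559984-142560043 (plus strand). The remaining ones lie at chr4:156200852-156200911 (minus strand) for Isg15, chr5:120907501-120907560 (minus strand) for Oas1a and chr2:122147533-122147592 (plus strand) for B2m. The Ifit3 and Ifit1 windows each held 2 cores, the Isg15 window 3 cores, and the B2m window 1 core. The core was found in 9 of the 19 genes with a window that were detected on every control array and in 6 of the 11 others. The genes that held it were Stat2, Ddx58, Ifih1, Eif2ak2, Ifit1, Ifit3, Oas1a, Bst2, Gbp2, Gbp3, Ifitm2, Ifitm3, Rsad2, Isg15 and B2m. A match gives only the letters in the window and does not show that a factor binds there.

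Which of the genes are on in unstimulated HL-1 cells was asked first. A probe was counted as detected where its detection p-value was under 0.05 and its normalized signal above 30, the thresholds of the study's cell filter, on every control array, and a gene where at least 1 of its probes was. By this rule 21 of the 38 genes were detected in control cells. They were Ifnar2, Stat2, Irf1, Irf3, Irf9, Ddx58, Trim25, Adar, Eif2ak2, Ifit2, Ifit3, Oasl2, Bst2, Gbp2, Ifitm2, Isg15, Usp18, Parp14, B2m, Tap1 and Ifi35. The same 21 genes passed the rule on every TGF-β2 array and on every PDGF-BB array, and no gene entered or left the set with either growth factor. Counted by probe, 32 of the 64 were detected on every control array, beside 41.4% of all probes on the array. A gene with several probes passes more readily, and the share of all genes on the array that pass was not computed. The counts by gene, here and by role below, therefore have no background. Per array, 34 to 37 member probes passed in control cells, 35 to 38 with TGF-β2 and 33 to 38 with PDGF-BB.

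A further 8 genes passed on at least 1 array but not on every control array. Counted by the probe that passed most often, Dhx58 did so on 8 arrays, Irf7 on 6, Ifih1 on 4, Gbp3 and Oasl1 on 3 each, Mx2 on 2, and Ifitm3 and Oas2 on 1 each. The remaining 9 genes, Ifnar1, Ifit1, Isg20, Oas1a, Ifitm1, Mx1, Rsad2, Parp9 and Rtp4, passed on no array. An undetected probe says that its signal was not above that of the negative control beads, and does not show that the transcript was absent. That limit is visible within genes, since 14 genes have more than 1 probe and in 8 of them some probes passed on every control array and others did not.

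**Figure D1:**
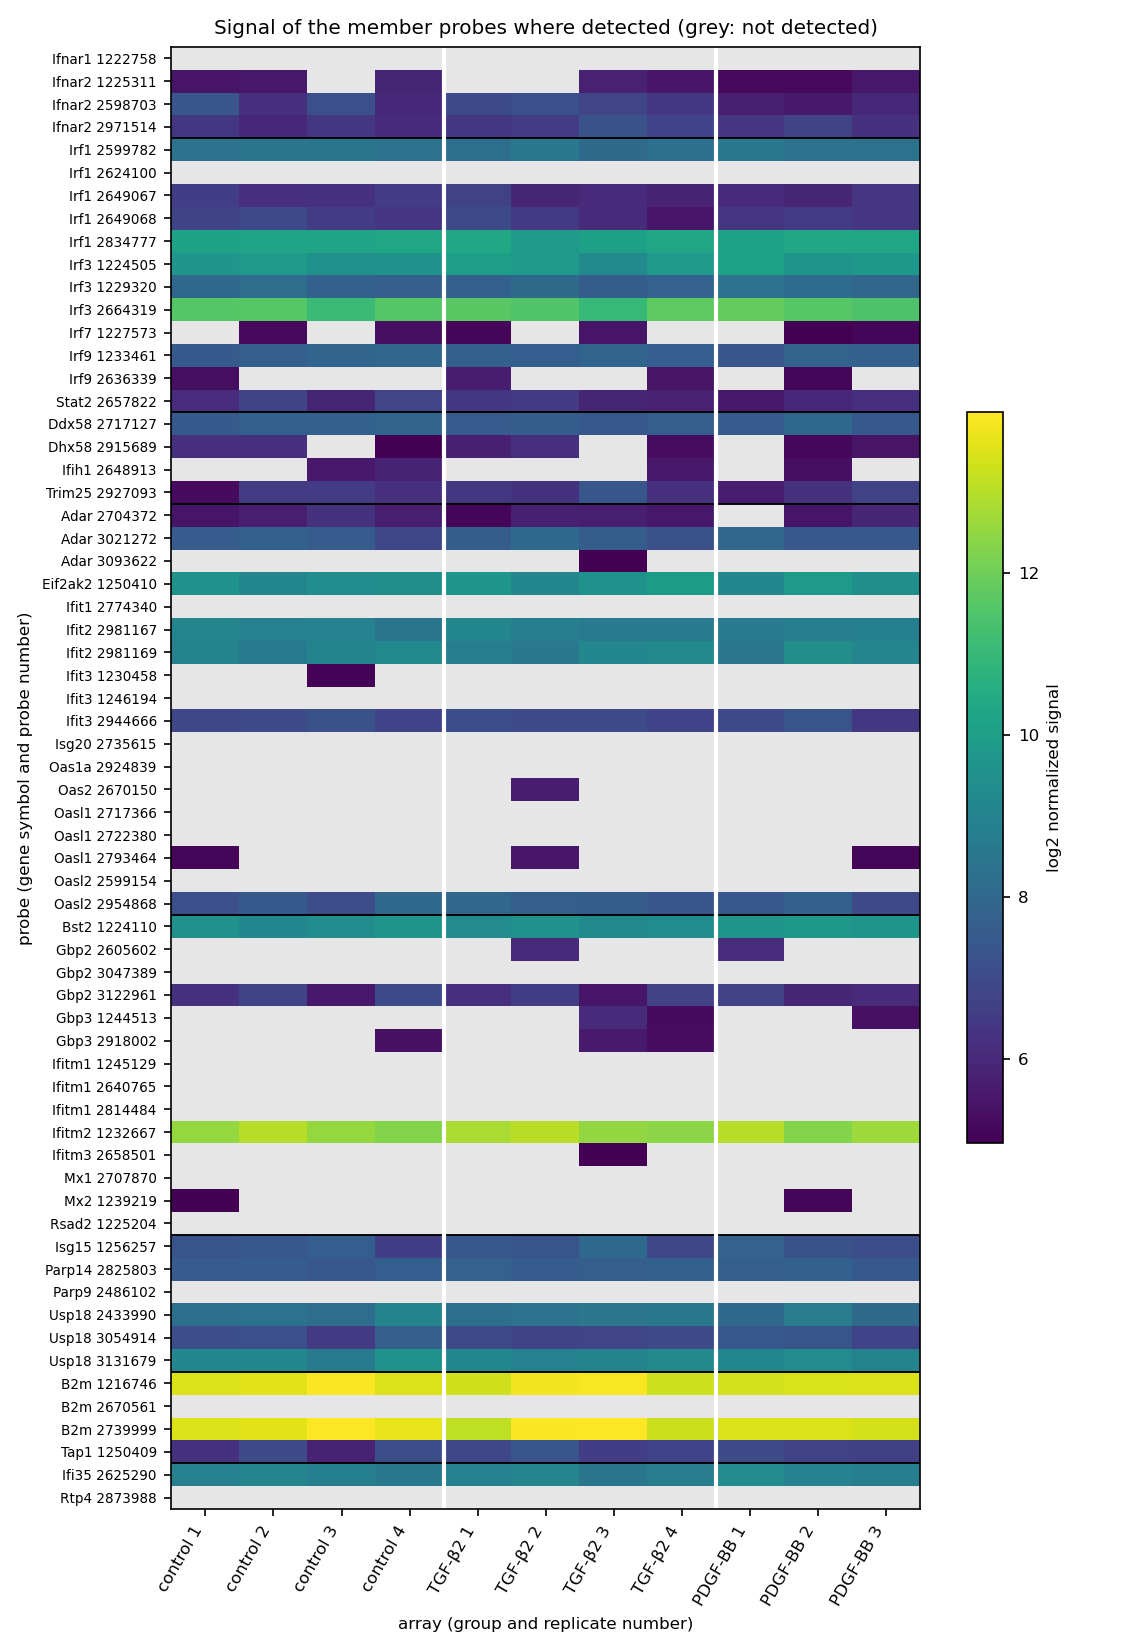
Log2 normalized signal of each of the 64 probes (rows, by gene symbol and probe number, with black lines between roles) on each of the 11 arrays (columns), coloured where the probe passed the detection rule and grey where it did not. The pattern of coloured and grey rows is nearly the same in the control, TGF-β2 and PDGF-BB columns, and the brightest rows are those of B2m and Ifitm2.

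The values given below are the authors' normalized signals, on a linear scale, in the order of the replicate numbers 1 to 4 for control and TGF-β2 and 1 to 3 for PDGF-BB. Signals of different probes cannot be set against each other as transcript levels, because each probe binds with its own strength. Differences between groups are log2 fold changes of a limma fit on log2 values normalized from the raw signals, with 95% intervals. As the RNA is from whole flasks, fewer cells expressing a gene and less RNA per cell cannot be told apart.

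The receptor came first in this order. Ifnar2 encodes the high-affinity chain of the type I interferon receptor, and 2 of its 3 probes were detected on every control array. The signal of its probe ILMN_2598703 was 164, 73.2, 144 and 62.9 in control cells, 128, 143, 115 and 86.5 with TGF-β2 and 53, 47.5 and 62.4 with PDGF-BB. The 3 PDGF-BB arrays were the lowest of the 11, although control array 4 stood just above them. The mean was 111 ± 50.4 in control cells (SD, n = 4), 118 ± 23.9 with TGF-β2 (n = 4) and 54.3 ± 7.53 with PDGF-BB (n = 3). The log2 fold change was -0.74 (95% interval -1.32 to -0.16) for PDGF-BB against control and 0.88 (0.30 to 1.46) for TGF-β2 against PDGF-BB. The unadjusted p-values of 0.0158 and 0.00596 in limma's fit gave adjusted p-values of 0.9998 and 0.7545 over all 12894 tested probes, so neither difference passed. Within chip 2, with 2 PDGF-BB and 2 control arrays, the difference was -0.65 on the log2 scale. Within chip 1, where 1 PDGF-BB array stood against 2 control arrays at 164 and 73.2, it was -0.85. Each figure averages over a high and a low control array. By the letters in the array codes, control arrays 1 and 3 (A to D) gave 164 and 144. Control arrays 2 and 4 (E to H) gave 73.2 and 62.9. PDGF-BB arrays 1 and 2 (A to D) gave 53 and 47.5, and array 3 (E to H) gave 62.4, just below control array 4. The TGF-β2 arrays did not divide in this way, and a difference by letters was not tested. A second Ifnar2 probe, ILMN_2971514, gave 85.1, 63.2, 85.3 and 66.6 in control cells, 85.7, 93.9, 148 and 109 with TGF-β2 and 82.6, 113 and 75.7 with PDGF-BB. Here the TGF-β2 arrays were the higher ones, all 4 lying above the control arrays by a margin that was narrow at its closest point, and the PDGF-BB arrays overlapped with both. Its log2 fold change was 0.43 (0.05 to 0.81) for TGF-β2 against control, with an unadjusted p-value of 0.0298 and an adjusted p-value of 0.9999 in limma's fit. For PDGF-BB against control the same probe gave 0.21 (-0.20 to 0.62), with the opposite sign to ILMN_2598703. The third probe, ILMN_1225311, passed on 3 control, 2 TGF-β2 and 3 PDGF-BB arrays and gave 44.5, 47.2, 29.1 and 59 in control cells, 28, 16.3, 54.8 and 44.9 with TGF-β2 and 36.8, 36.1 and 47.8 with PDGF-BB, with overlapping groups. All 3 probes carry the symbol Ifnar2 in the platform annotation, and they did not share a direction in either comparison with control. Ifnar1, the other chain of the receptor, was detected on no array, with signals from -10.8 to 17.0.

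**Figure D2:**
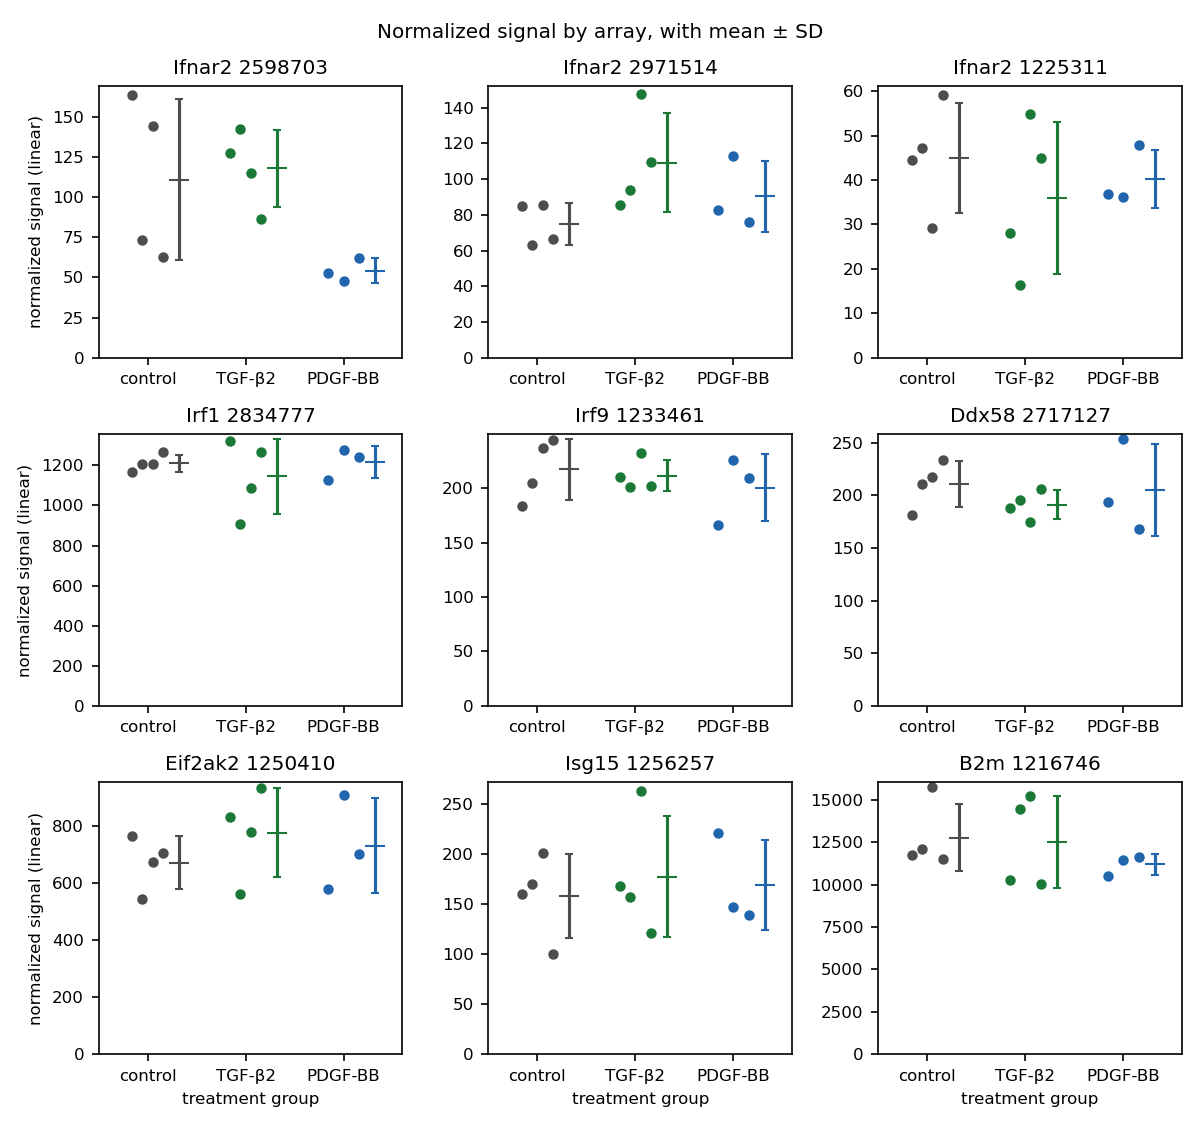
Normalized signal (linear, from 0) on each array for 9 probes of 7 genes, with 1 point per array and, to the right of the points, the group mean and its SD (n = 4 for control and TGF-β2, n = 3 for PDGF-BB). The 3 probes of Ifnar2 in the top row order the groups differently, and in the other 6 panels the points of the 3 groups overlap.

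Among the transcription factors, 4 of the 5 genes were detected in every control array. Stat2, the STAT protein specific to interferon signalling, gave 68.9, 113, 58.9 and 116 in control cells, 86, 89.8, 60 and 55.1 with TGF-β2 and 46.2, 62.2 and 74 with PDGF-BB. Control arrays 2 and 4 were the highest of the 11 and PDGF-BB array 1 the lowest, and the groups overlapped. Its log2 fold change was -0.22 (-0.67 to 0.23) with TGF-β2 and -0.40 (-0.89 to 0.08) with PDGF-BB, both within the spread between arrays. Irf9, the DNA-binding partner of the STAT proteins, gave 184, 205, 237 and 244 in control cells, 210.4, 202, 232 and 202 with TGF-β2 and 167, 226 and 209 with PDGF-BB with ILMN_1233461. Its arrays overlapped in all groups, and the log2 fold changes were -0.03 (-0.33 to 0.28) with TGF-β2 and -0.10 (-0.43 to 0.23) with PDGF-BB. The second Irf9 probe passed on 4 arrays only.

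Irf1 is a factor that maintains basal expression of many interferon-stimulated genes, and 4 of its 5 probes were detected in all arrays. The brightest of them, ILMN_2834777, gave 1165, 1206, 1207 and 1267 in control cells, 1322, 906, 1085 and 1268 with TGF-β2 and 1126, 1277 and 1244 with PDGF-BB. The control arrays lay close together, and TGF-β2 array 1 was the highest and TGF-β2 array 2 the lowest of the 11. On the log2 scale the change was -0.10 (-0.41 to 0.20) with TGF-β2 and -0.0027 (-0.33 to 0.33) with PDGF-BB. The 4 tested probes all had a fold change below 0 with TGF-β2, from -0.34 to -0.10, and every interval included 0. Irf3, the factor that viral RNA sensors activate to induce interferon, was detected by all 3 of its probes. ILMN_2664319 gave 3095, 3191, 2228 and 3087 in control cells, 3268, 2969, 2037 and 3451 with TGF-β2 and 3658, 3175 and 2789.7 with PDGF-BB. Array 3 was the lowest in both the control and the TGF-β2 group, and the groups overlapped. Its log2 fold change was 0.0026 (-0.40 to 0.40) with TGF-β2 and 0.14 (-0.29 to 0.58) with PDGF-BB. Irf7, which amplifies interferon production once interferon has been sensed, stood at the detection limit with 27.3, 36.4, 19.6 and 40.5 in control cells, 33.9, 22.5, 43.8 and 26.6 with TGF-β2 and 22.1, 31.8 and 33.6 with PDGF-BB. It passed on 2 arrays of each group and did not order them.

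The RNA sensors were detected in part. Ddx58 encodes RIG-I, the cytosolic sensor of uncapped viral RNA, and gave 181, 211, 217 and 233 in control cells, 188, 196, 175 and 206 with TGF-β2 and 194, 253 and 168 with PDGF-BB. The lowest and the highest of the 11 arrays both belonged to the PDGF-BB group. The log2 fold change was -0.13 (-0.45 to 0.18) with TGF-β2 and -0.06 (-0.40 to 0.29) with PDGF-BB. Trim25, the ubiquitin ligase that assists RIG-I, gave 37.2, 92.8, 95.5 and 73.2 in control cells, 85.4, 77.6, 167 and 74 with TGF-β2 and 50.1, 76.6 and 104 with PDGF-BB. Control array 1 was the lowest and TGF-β2 array 3 stood far above the rest. The intervals were correspondingly wide, with log2 fold changes of 0.34 (-0.24 to 0.93) with TGF-β2 and 0.04 (-0.59 to 0.67) with PDGF-BB. Ifih1, which encodes the sensor MDA5 for long double-stranded RNA, gave 7.94, 21.9, 47.2 and 55.9 in control cells, 24.9, 14.6, 21.3 and 46.9 with TGF-β2 and 27.3, 40.2 and 28.7 with PDGF-BB. Dhx58, which encodes LGP2, a regulator of both sensors, gave 74.4, 72.1, 24.5 and 31.4 in control cells, 54.3, 73.4, 23.6 and 38.6 with TGF-β2 and 20.6, 35.6 and 43.1 with PDGF-BB. Its 4 highest values were those of control and TGF-β2 arrays 1 and 2, all on chip 1, whereas PDGF-BB array 1 on the same chip was the lowest of the 11. Neither of the genes passed on every control array, and in both the groups overlapped.

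Effectors that act on RNA were divided by family. Eif2ak2 encodes PKR, the kinase that stops translation when it binds double-stranded RNA, and gave 764, 544, 672 and 704 in control cells, 829.7, 562, 779.5 and 932 with TGF-β2 and 578, 908 and 702 with PDGF-BB. Each TGF-β2 array was above the control array of the same number, but the groups overlapped. PKR mRNA had a log2 fold change of 0.20 (-0.21 to 0.61) with TGF-β2 and 0.10 (-0.34 to 0.54) with PDGF-BB. Adar, the adenosine deaminase that edits double-stranded RNA, was detected with 2 of 3 probes in control cells. ILMN_3021272 gave 191, 219, 186 and 120.5 in control cells, 196, 263, 199 and 148 with TGF-β2 and 248, 168 and 169 with PDGF-BB. Replicate number 4 was the lowest within both control and TGF-β2, and the log2 fold change was 0.16 (-0.29 to 0.61) with TGF-β2 and 0.12 (-0.37 to 0.60) with PDGF-BB. The other Adar probe detected in control cells, ILMN_2704372, had the opposite sign in both comparisons. Its log2 fold change was -0.18 (-0.57 to 0.22) with TGF-β2 and -0.27 (-0.69 to 0.16) with PDGF-BB.

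The IFIT proteins bind viral RNA that lacks the marks of cellular RNA. Ifit2 was detected by both of its probes, and ILMN_2981169 gave 513, 404, 514 and 628 in control cells, 454, 379, 558 and 585 with TGF-β2 and 369.7, 691 and 540.1 with PDGF-BB. The highest and the lowest array were both in the PDGF-BB group. Its log2 fold change was -0.06 (-0.51 to 0.39) with TGF-β2 and 0.02 (-0.46 to 0.51) with PDGF-BB. Ifit3 was detected by ILMN_2944666 alone of its 3 probes, which gave 122, 131, 146 and 109.6 in control cells, 141, 134, 132 and 109 with TGF-β2 and 124, 157 and 86.7 with PDGF-BB. The lowest and highest values were again both in the PDGF-BB group, with log2 fold changes of 0.02 (-0.35 to 0.38) with TGF-β2 and -0.07 (-0.46 to 0.33) with PDGF-BB. Ifit1, whose promoter stretch printed above holds 2 cores as that of Ifit3 does, was detected on no array and had signals from -20.5 to 10.7. Neither of the 2 promoter windows of Ifit2, the family member detected by both of its probes, held the core.

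The oligoadenylate synthetase family makes the messenger that activates RNase L, and OASL1 and OASL2 are related proteins of that family. Only Oasl2 was detected in every control array, by 1 of its 2 probes, which gave 144, 184, 135 and 249 in control cells, 242, 207, 199 and 166 with TGF-β2 and 171, 218 and 123 with PDGF-BB. Control array 4 and TGF-β2 array 1 were the highest, PDGF-BB array 3 was the lowest, and the log2 fold change was 0.21 (-0.25 to 0.66) with TGF-β2 and -0.05 (-0.54 to 0.44) with PDGF-BB. Oasl1 passed on 1 array in each group with 1 of its 3 probes, ILMN_2793464, which gave 33.5, 7.1, 7.92 and 28.1 in control cells, 22.5, 45.6, 10.7 and 24.2 with TGF-β2 and 14.3, 14.8 and 34.8 with PDGF-BB and did not separate the groups. Oas2 passed on TGF-β2 array 2 alone, at a signal of 51.5, and Oas1a on none. Isg20, an exonuclease that degrades single-stranded RNA, was detected on no array, and its signal was below 0 on 10 of the 11.

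Of the membrane proteins and GTPases that restrict viruses, 3 of 9 genes were detected in control cells. Bst2, or tetherin, holds budding virus at the cell surface and gave 741, 582, 670.5 and 841 in control cells, 639, 746, 608 and 652 with TGF-β2 and 785, 870.1 and 796 with PDGF-BB. The 3 PDGF-BB arrays were above all 4 TGF-β2 arrays, and control array 4 lay among them. The log2 fold change was -0.31 (-0.64 to 0.02) for TGF-β2 against PDGF-BB, with an unadjusted p-value of 0.067 in limma's fit, and 0.22 (-0.11 to 0.55) for PDGF-BB against control. Ifitm2 belongs to a family of small membrane proteins that block the fusion of virus with the cell, and gave 6041, 8216, 5979 and 5106 in control cells, 7322, 8420.2, 5878 and 5488 with TGF-β2 and 8335, 5096 and 6405 with PDGF-BB. Array 2 was the highest in both the control and the TGF-β2 group, and the log2 fold change was 0.10 (-0.33 to 0.53) with TGF-β2 and 0.05 (-0.41 to 0.51) with PDGF-BB. In contrast, Ifitm1 was detected by none of its 3 probes, and Ifitm3 on TGF-β2 array 3 alone, at a signal of 31.1.

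Gbp2, a guanylate-binding GTPase best known as a target of interferon γ, was detected by 1 of its 3 probes, ILMN_3122961, at 76.2, 111, 47.1 and 133 in control cells, 74.5, 96, 45.8 and 104 with TGF-β2 and 107, 61.3 and 65.2 with PDGF-BB. Array 3 was the lowest within both control and TGF-β2, and the log2 fold change was -0.13 (-0.70 to 0.44) with TGF-β2 and -0.16 (-0.78 to 0.46) with PDGF-BB. Gbp3, also on chromosome 3, stood at the detection limit, and its probe ILMN_1244513 gave 28.2, 32.1, 19.8 and 25.9 in control cells, 14.5, 25.6, 65.6 and 36.9 with TGF-β2 and 9.54, 20.2 and 41 with PDGF-BB. It passed on 2 TGF-β2 arrays and 1 PDGF-BB array, the other Gbp3 probe on 1 control and 2 TGF-β2 arrays, and the control arrays of ILMN_1244513 lay within the range of its TGF-β2 arrays. The Mx GTPases, which trap viral nucleocapsids, were undetected or nearly so. Mx1 passed on no array and Mx2 on 2, control array 1 at 31.2 and PDGF-BB array 2 at 34.8. Rsad2, which encodes viperin, passed on no array, with a highest signal of 31.0 on control array 3 at a detection p-value of 0.0526.

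ISG15 is a ubiquitin-like protein that is attached to other proteins, and USP18 both removes it and restrains signalling at IFNAR2. Isg15 gave 159.7, 170.3, 201 and 100.1 in control cells, 168, 157, 263 and 121 with TGF-β2 and 221, 147 and 139 with PDGF-BB. TGF-β2 array 3 was the highest and control array 4 the lowest, and the groups overlapped. For Isg15 the log2 fold change was 0.14 (-0.38 to 0.67) with TGF-β2 and 0.10 (-0.47 to 0.67) with PDGF-BB. Usp18 was detected by all 3 of its probes, and ILMN_3131679 gave 583, 559, 413 and 745 in control cells, 580.5, 486, 526 and 592 with TGF-β2 and 545, 637 and 507 with PDGF-BB. Control array 4 was the highest and control array 3 the lowest of the 11. Its log2 fold change was -0.04 (-0.41 to 0.32) with TGF-β2 and -0.01 (-0.40 to 0.39) with PDGF-BB. Parp14, an ADP-ribosyltransferase, gave 188, 191, 172 and 199 in control cells, 220.3, 194, 208 and 213 with TGF-β2 and 206, 215 and 174 with PDGF-BB. It varied less between arrays of a group than any other of the 40 tested member probes, with a within-group SD of 0.10 on the log2 scale. Each TGF-β2 array was above the control array of the same number, and the log2 fold change was 0.15 (-0.12 to 0.41) with TGF-β2 and 0.07 (-0.21 to 0.36) with PDGF-BB. Parp9, of the same enzyme family, was detected on no array.

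Both antigen presentation genes were detected. B2m encodes β2-microglobulin, the invariant chain of the MHC class I molecules, and ILMN_1216746 gave 11717, 12076, 15724 and 11534 in control cells, 10296, 14448, 15239 and 10030.4 with TGF-β2 and 10493, 11470.4 and 11651 with PDGF-BB. Array 3 was the highest in both the control and the TGF-β2 group, and the PDGF-BB arrays lay within the range of the TGF-β2 arrays. The log2 fold change was -0.05 (-0.41 to 0.30) with TGF-β2 and -0.16 (-0.54 to 0.23) with PDGF-BB, and the probe ILMN_2739999 gave -0.13 (-0.55 to 0.30) and -0.20 (-0.66 to 0.26). The remaining B2m probe was detected on no array. Tap1, a subunit of the transporter that loads peptides on class I molecules, gave 75, 132, 58.6 and 141 in control cells, 120.1, 159.8, 97.8 and 111 with TGF-β2 and 133, 106 and 103 with PDGF-BB. Control arrays 1 and 3 were the lowest of the 11, and the log2 fold change was 0.27 (-0.23 to 0.76) with TGF-β2 and 0.19 (-0.35 to 0.72) with PDGF-BB. Ifi35, an interferon-induced leucine zipper protein, gave 471, 541, 468 and 394 in control cells, 491, 542, 352 and 433 with TGF-β2 and 629.8, 496 and 455 with PDGF-BB. PDGF-BB array 1 was the highest and TGF-β2 array 3 the lowest, and its log2 fold change was -0.05 (-0.42 to 0.31) with TGF-β2 and 0.16 (-0.23 to 0.55) with PDGF-BB. Rtp4, a chaperone of membrane receptors, was detected on no array.

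Whether the growth factors moved the group as a whole was then asked over its tested probes. Testing was limited to probes whose detection p-value fell below 0.05 on 3 arrays or more, which left 40 probes of 26 member genes in and 24 probes out. With limma and an adjusted p-value under 0.05, no member probe was called with TGF-β2 against control, with PDGF-BB against control or with TGF-β2 against PDGF-BB, beside 0.00% of all 12894 tested probes in each comparison. At an unadjusted p-value under 0.05, 1 of the 40 member probes passed with TGF-β2 against control, beside 2.02% of all tested probes. The count was 1 with PDGF-BB against control, beside 3.20%, and 1 with TGF-β2 against PDGF-BB, beside 5.13%. All of these were the probes of the receptor gene Ifnar2 described above. The log2 values of the groups did not overlap for 1 probe between TGF-β2 and control (1.38% of all tested probes), for 1 between PDGF-BB and control (3.65%) and for 2 between TGF-β2 and PDGF-BB (5.12%), the second of the last pair being that of Bst2. These shares of members are near or below the background. The 3 comparisons share arrays and are not independent of each other. Both differences of Ifnar2 ILMN_2598703, for instance, use the same PDGF-BB arrays.

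The fold changes lay close to 0 on both sides. With TGF-β2 against control, 19 member probes were above and 21 below 0, from -0.34 to 0.43, with a median of -0.0225 beside -0.0028 for all tested probes. With PDGF-BB against control, 19 were above and 21 below, from -0.74 to 0.22, with a median of -0.0043 beside 0.0106. Between TGF-β2 and PDGF-BB, 26 were above and 14 below, from -0.32 to 0.88, with a median of 0.0498 beside -0.0228. The 95% interval lay within a change of 2-fold in either direction for 40 of the 40 probes with TGF-β2 and for 39 with PDGF-BB and between the treated groups, the exception being Ifnar2 ILMN_2598703. For all tested probes these shares were 96.6%, 92.8% and 92.2%. The fit adds an offset of 16 to the signals before log2, which draws fold changes of dim probes toward 0. Gbp3 ILMN_2918002, for instance, had a mean normalized signal of 12.8 in control cells and 27.5 with TGF-β2. Its fitted log2 fold change was 0.34 (-0.19 to 0.87). For probes near the detection limit the intervals therefore do not bound the change in RNA. The median standard error of a member's log2 fold change was 0.19 with TGF-β2 and 0.21 in the other comparisons.

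**Figure D3:**
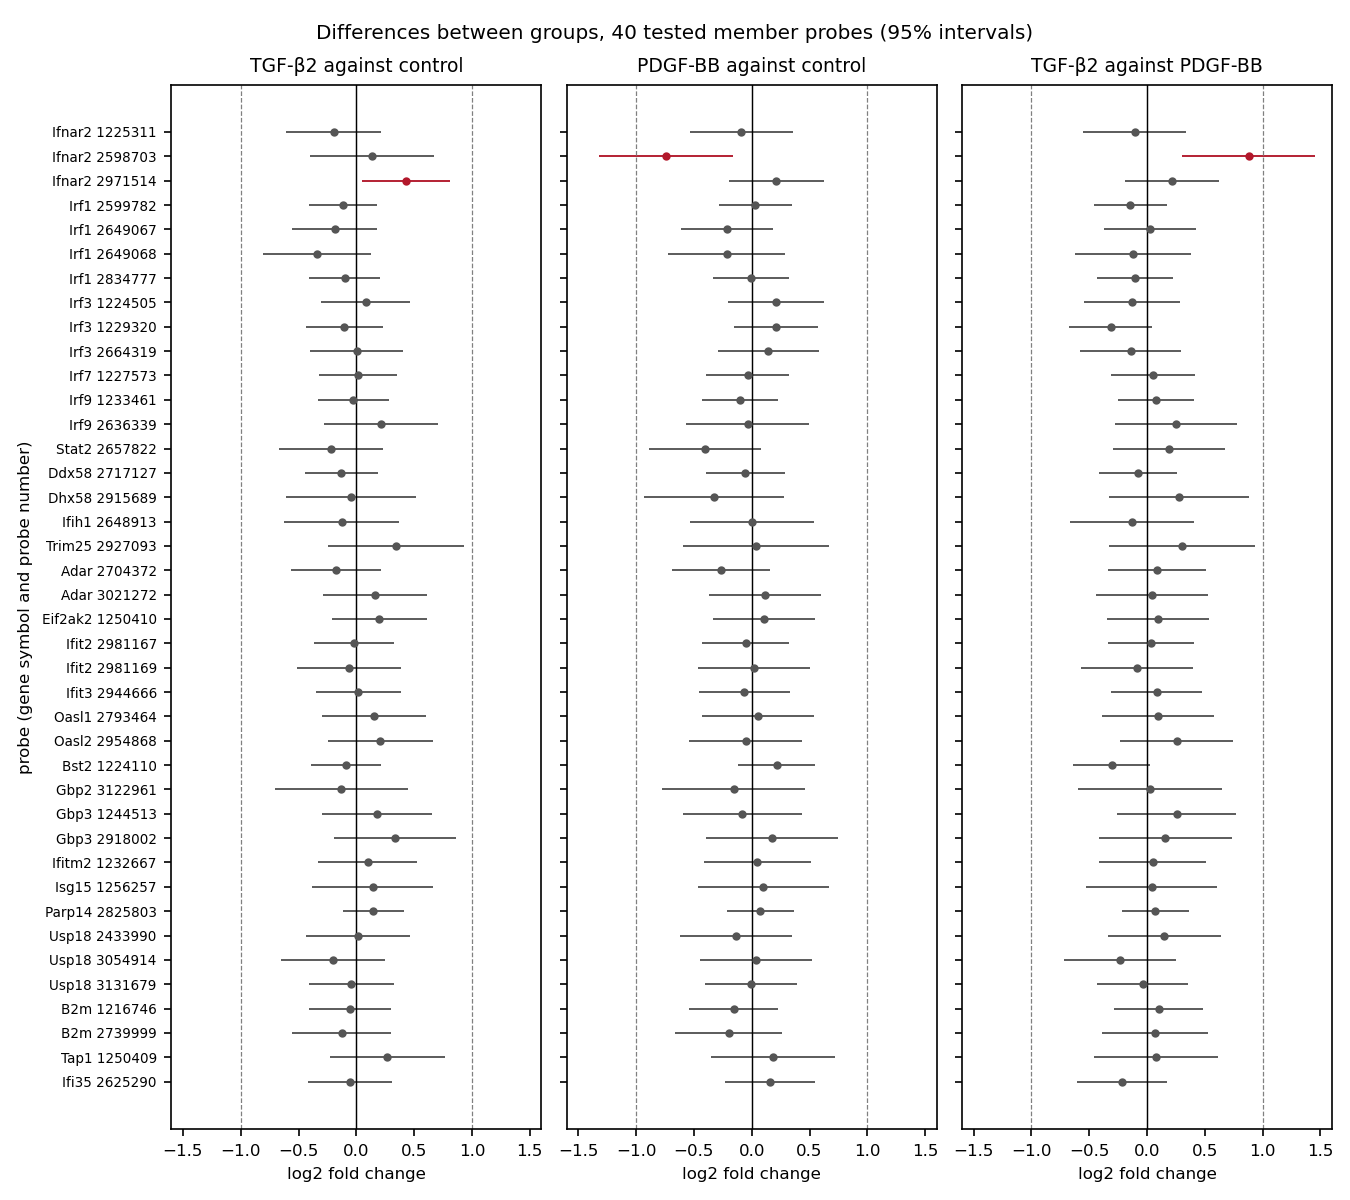
Log2 fold change (points) and 95% interval (bars) of the 40 tested member probes in the 3 comparisons, ordered by role, with dashed lines at a change of 2-fold. The 3 red intervals, all of Ifnar2, are those that exclude 0 before adjustment, and apart from Ifnar2 ILMN_2598703 the intervals lie between the dashed lines.

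The spread between flasks was similar to that of other transcripts. The within-group SD had a median of 0.29 on the log2 scale over the member probes and 0.27 over all tested probes. It was lowest for Parp14 and highest for Trim25, at 0.45, followed by Gbp2 at 0.44 and Dhx58 at 0.42. Control array 4 held the highest value of 9 of the 40 member probes (22.5%, beside 9.44% of all tested probes), and PDGF-BB array 3 of none (0.0%, beside 6.48%). The median deviation of the member probes from their means over the 11 arrays ran from -0.095 on control array 3 to 0.06 on control array 4, so that the extremes of both signs were in the control group. Within same-numbered pairs of control and TGF-β2 arrays, 4 member probes were higher with TGF-β2 in 4 of 4 pairs, those of Adar (ILMN_3021272), Eif2ak2, Parp14 and Ifnar2 (ILMN_2971514). This was 10.0% of the members beside 6.47% of all tested probes. The probe of Gbp2 was lower in 4 of 4 pairs, which was 2.5% beside 6.8%.

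**Figure D4:**
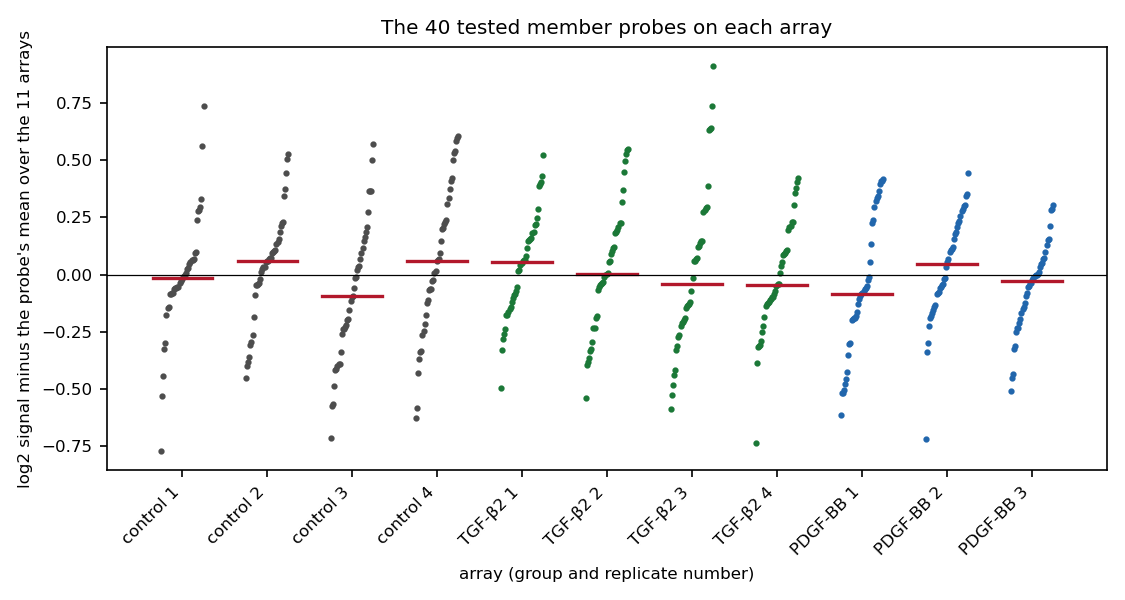
Log2 signal of each of the 40 tested member probes minus its own mean over the 11 arrays, plotted by array with the points of an array sorted by value, and the median of each array as a red line. The medians lie between -0.095 and 0.06, with the lowest and the highest both in control cells.

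The wider pathway was examined in lists of genes other than the 40. A gene again counted as detected where at least 1 of its probes passed on every control array. The share of all genes on the array that pass this rule was not computed, so the counts below have no background by gene. Of the receptors and kinases of interferon signalling, all 7 genes with a probe were detected in every control array, among them the kinases Jak1, Jak2 and Tyk2, the receptor chain Ifngr2 for interferon γ, and Il10rb and Ifnlr1, which together form the receptor for interferon λ. Il10rb had a signal of 1457 ± 64.6 (SD, n = 4) in control cells, 1515 ± 98.1 (n = 4) with TGF-β2 and 1571 ± 154 (n = 3) with PDGF-BB. Jak1 had 292 ± 78.7 in control cells, 319 ± 129 with TGF-β2 and 288 ± 96.5 with PDGF-BB. The ligands were the opposite case, with 1 of 17 interferon genes detected in every control array. It was Ifna6, through 1 of its 2 probes, at 77.3 ± 11.5 in control cells, 72.7 ± 15.2 with TGF-β2 and 97.7 ± 12.3 with PDGF-BB, while 14 of the 17, Ifnb1 and Ifng among them, were detected on no array.

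Inhibitors that limit interferon signalling were detected for 6 of 9 genes. They were the phosphatases Ptpn1 and Ptpn11, the suppressors of cytokine signalling Socs3 and Cish, and the STAT inhibitors Pias1 and Pias4. Of the proteins that lead from nucleic acid sensors to interferon, 7 of 11 genes were detected. Mavs, the mitochondrial adaptor of RIG-I and MDA5, had a signal of 295 ± 41.2 in control cells, 315 ± 38.5 with TGF-β2 and 332 ± 18.9 with PDGF-BB. Tbk1, the kinase that phosphorylates IRF3, had 1274 ± 251 in control cells, 1304 ± 404 with TGF-β2 and 1210.2 ± 391 with PDGF-BB, and the adaptor Myd88, the ubiquitin ligases Traf6 and Trim56 and the kinase Ikbke were also detected. Among the other interferon regulatory factors and their partners, 4 of 10 genes were detected, namely Irf2, Irf8, Irf2bp1 and Pml.

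Other effector genes were detected for 14 of 42 genes with a probe. The 6 with the highest signal of a probe were Irgm1, Ifi27, Tdrd7, Igtp, Ifi30 and Samhd1. Of these, Irgm1 and Igtp are immunity-related GTPases and Samhd1 depletes the nucleotides that viruses need. Irgm1 came first through ILMN_2804037 alone, with a mean of 26776 in control cells. Its probes ILMN_1234539 and ILMN_2711172 had means of 291.5 and 9.999 there. In antigen presentation 10 of 14 genes were detected, among them Psmb10, a catalytic subunit of the immunoproteasome, its activators Psme1 and Psme2, Tap2, the partner of TAP1, and the class I genes H2-D1 and H2-T23. Of 7 chemokine and checkpoint genes, Cxcl10 and Cd274 were detected and the other 5 on no array. Cxcl10 had a signal of 277 ± 84.6 in control cells, 216 ± 55.9 with TGF-β2 and 329 ± 91.8 with PDGF-BB. With limma and an adjusted p-value under 0.05, no probe of any of these lists was called in any of the 3 comparisons. At an unadjusted p-value under 0.05, none was below the threshold with TGF-β2 against control. With PDGF-BB against control, 1 of 13 tested probes of the receptors and kinases, 1 of 11 of the sensing proteins, 1 of 27 of the other effectors and 1 of 18 of antigen presentation were below it, beside 3.20% of all tested probes. Between TGF-β2 and PDGF-BB the counts were 1 of 8 among the inhibitors, 1 of 27 among the other effectors and 1 of 18 in antigen presentation, beside 5.13%.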

How the data were processed

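HL-1 cell RNA was amplified and hybridized to Illumina MouseRef-8 Beadchips, 4 control, 4 TGF-β2 and 3 PDGF-BB arrays, each from 1 flask. The authors deposited for each probe a raw signal intensity, a detection p-value and a bead number (16 to 62 for the probes reported). They normalized the intensity values by cubic spline in Beadstudio, per the paper's methods, while the processing notes name GenomeStudio. The deposited normalized intensity and detection p-values were used for detection. The methods give 4 cell samples per group, and the other PDGF-BB sample was not analysed here. The paper reports that the cells matched to its excluded PDGF-BB exosome sample were an outlier on the arrays too. The probe sequences were not used, so binding to near-identical gene copies was not checked. Groups and replicate numbers come from the sample labels.

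Differences were computed in R 4.3.3 with limma 3.58.1 from the raw intensity: neqc (background from the deposited detection p-values, offset 16, quantile normalization, log2), then lmFit and eBayes on all 11 arrays with 1 mean per group. Of all probes, 12894 reached a detection p-value below 0.05 on 3 or more arrays and were tested, and p-values were adjusted by Benjamini-Hochberg over all of them. The fit was also run on simulated data with known changes and noise that was independent between arrays. The arrays here correlate in part, so that run does not show how the fit behaves on them. Tables were made in Python 3.11.15 with pandas 2.3.3. Symbols came from the platform annotation, which names 23978 of 25697 probes, and promoter sequences from RefSeq. Values per array were given for every gene detected on all control arrays, for up to 5 others of lowest detection p-value and for any with an unadjusted p-value under 0.05; in the other pathway lists up to 6 genes of highest signal were named. The genes and lists were chosen with earlier results of these data known.

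Same-numbered control and TGF-β2 arrays lay on the same chip, with array letters of the same group (A to D or E to H). For them, replicate number cannot be told apart from chip and letter group. These arrays correlated in their deviations from the group means (0.191, 0.400, 0.504 and 0.371), so they were treated as pairs in an alternative fit. For same-numbered PDGF-BB arrays the correlations had both signs, at -0.138, -0.442 and 0.203 with control and 0.182, -0.328 and 0.328 with TGF-β2. PDGF-BB array 2 lay on chip 2, whereas control and TGF-β2 arrays 2 lay on chip 1. PDGF-BB array 3 had a letter of E to H, whereas control and TGF-β2 arrays 3 had letters of A to D. Matched by chip and letter group, PDGF-BB array 2 correlated at 0.243 with control array 3 and 0.34 with TGF-β2 array 3. PDGF-BB array 3 correlated at 0.0533 with control array 4 and 0.0293 with TGF-β2 array 4. The alternatives tried were the authors' normalized signals, an offset of 50, no filter or a stricter filter on dim probes, replicate number, chip, or chip with a grouping of its array letters (A to D, E to H), as a block, each chip alone, array weights, and leaving out each array.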

Additional observations from a re-analysis of the deposited data

Results flagged for a closer look

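In 4 of the 64 groups of 4 arrays that were examined for member probes detected on every control array, 1 array stood apart from the other 3 by more than Dixon's 95% critical value for the gap divided by the range. Chance gives about 1 in 20, or 3.2 of 64. Irf3 (ILMN_2664319) had a signal of 2228 on control array 3, against 3087 to 3191 on the other control arrays (ratio 0.892). B2m (ILMN_1216746) had 15724 on the same array, against 11534 to 12076 (ratio 0.871). Usp18 (ILMN_2433990) had 511 on control array 4, against 289.5 to 317 (ratio 0.875). Trim25 (ILMN_2927093) had 167.0 on TGF-β2 array 3, against 74.0 to 85.4 (ratio 0.878). In the TGF-β2 group, Irf3 was likewise lowest and B2m highest on array 3, as the values in the report show. No cause was tested.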

How the results depend on the processing

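The count of member probes called at an adjusted p-value under 0.05 was 0 in each comparison under every alternative run, those with the replicate number as a block included. In the paired fit of control and TGF-β2 arrays alone with the replicate number as a block, chosen after seeing the data, the count was also 0. At an unadjusted p-value under 0.05, the count ranged from 0 to 3 with TGF-β2 against control, from 0 to 2 with PDGF-BB against control and from 1 to 3 between the treated groups. The Ifnar2 fold changes with an unadjusted p-value under 0.05 kept their sign under the alternatives run, and the other Ifnar2 fold changes were not compared in this way. ILMN_2598703 ranged from -0.93 to -0.55 with PDGF-BB against control and from 0.65 to 1.09 for TGF-β2 against PDGF-BB, and ILMN_2971514 from 0.23 to 0.63 with TGF-β2 against control, with adjusted p-values in limma's fits of 0.487 to 1.0, 0.361 to 1.0 and 0.827 to 1.0.

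Of the genes detected in control cells, 13 remained where every probe of a gene had to pass, in place of 21 where 1 probe was enough. The count was 19 with a detection p-value under 0.01, 16 with a signal above 100, 21 with no signal minimum, 24 with at least 2 and 27 with at least 1 control array, and 21 to 22 when each control array was left out. The groups of 3 or 4 arrays limit the precision, and most of the undetected genes were measured by a single probe.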

Other observations

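Of the pathway genes outside the 40, the probes below had an unadjusted p-value under 0.05 in limma's fit, were chosen after their values were seen, and had adjusted p-values of 0.7798 or more in each comparison. Tapbp, which encodes tapasin of the peptide-loading complex, had a signal of 294 ± 115 in control cells (SD, n = 4), 318 ± 55.3 with TGF-β2 (n = 4) and 543 ± 95.2 with PDGF-BB (n = 3), and its log2 fold change was 0.92 with PDGF-BB against control and -0.75 for TGF-β2 against PDGF-BB. Myd88, an adaptor of Toll-like receptors, had 1863 ± 199.7 in control cells, 2209 ± 222 with TGF-β2 and 2480.0 ± 114 with PDGF-BB, a log2 fold change of 0.42 with PDGF-BB against control. Irgm1 (ILMN_2804037) had 26776 ± 3732, 26255 ± 3076 and 20338 ± 4017 in the same order, a log2 fold change of -0.42 with PDGF-BB against control and 0.41 for TGF-β2 against PDGF-BB, while its second tested probe ILMN_1234539 gave 0.06 and -0.0033. Jak2 (ILMN_3115162) had 108 ± 22.9, 82.7 ± 27.8 and 60.1 ± 48.2, a log2 fold change of -0.78 with PDGF-BB against control, while ILMN_1245579 of the same gene gave -0.09. Pias4 had 250.3 ± 49.6, 295 ± 25.1 and 214 ± 52.5, a log2 fold change of 0.45 between TGF-β2 and PDGF-BB.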
